A study of Mus musculus with 4 samples.

Results

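Keratin genes were read on 4 mouse Agilent microarrays, as every non-control probe whose gene name is Krt followed by a number only. The keratin-associated proteins (Krtap) carry another name and were left out. This gave 62 probes for 47 genes, of 39429 probes and 30119 gene or transcript names in all. The chosen genes comprise 26 type I and 21 type II keratins, of which 25 genes lie on chromosome 11 and 22 on chromosome 15. The samples were o-organoid and y-organoid (both crypt-villus organoids, grown in culture), crypt (the epithelial pits of the gut wall) and intestine (whole intestine), with 1 array each. All came from wild type C57/BL6 mice, with no other allele or treatment in the labels. The age of the animals, any pooling of animals and the meaning of y and o are not given in the sources. The title names non-neuronal acetylcholine and stem cells that carry Lgr5. RNA input was 40 ng for o-organoid and 20 ng for each other sample. In comparisons with o-organoid, input and sample therefore cannot be told apart. Each difference below compares 2 arrays and has no replicate check, so no p-value or standard error between groups is given.

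Keratins are the intermediate filament proteins of epithelial cells. A filament is built from pairs of 1 acidic type I and 1 basic type II keratin, so a cell normally makes members of both types. Single-layered epithelia such as the gut lining are known for Krt8 and Krt7 (type II) with Krt18, Krt19 and Krt20 (type I), whereas skin, oral lining, cornea, hair follicles and hair shafts each use further pairs. The filaments are anchored to desmosomes and, through proteins called plakins, to other parts of the cell.

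The probes are 60-base oligonucleotides, and the sequence a probe carries decides which transcript it reads. Probes of 4 simple epithelial keratins, and of Krt42 and Krt15, whose values are described later, are shown first. Positions are on mouse build mm9, which the file headers name, with the strand after each.
Krt8 (the dimmer of its 2 probes, chr15:101828827-101828886, minus strand): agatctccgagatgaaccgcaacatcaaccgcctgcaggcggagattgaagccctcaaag
Krt7 (chr15:101253718-101253777, plus strand): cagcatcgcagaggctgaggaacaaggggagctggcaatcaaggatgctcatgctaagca
Krt18 (chr15:101862341-101862400, plus strand): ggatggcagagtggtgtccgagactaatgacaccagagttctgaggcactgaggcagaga
Krt19 (chr11:100002392-100002451, minus strand): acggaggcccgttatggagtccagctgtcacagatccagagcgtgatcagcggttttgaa
Krt42 (chr11:100128252-100128311, minus strand): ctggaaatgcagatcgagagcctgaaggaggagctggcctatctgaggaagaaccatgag
Krt15 (chr11:99993331-99993390, minus strand): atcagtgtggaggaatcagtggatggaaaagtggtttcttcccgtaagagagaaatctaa

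The hair keratins Krt81 and Krt83 are shown because their probes are nearly alike. Capitals mark a run of 24 bases that both probes share. Krt83 of the array design is named Krt87 in the RefSeq gene table.
Krt81 (chr15:101290583-101290642, minus strand): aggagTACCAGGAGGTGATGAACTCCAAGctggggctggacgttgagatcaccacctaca
Krt83 (chr15:101263556-101263615, minus strand): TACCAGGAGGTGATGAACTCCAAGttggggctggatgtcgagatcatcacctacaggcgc
These probes matched at 51 of 55 aligned bases. Of the 1830 pairs of keratin probes aligned, 4 reached a local alignment score of 25 or more. The brightest Krt85 probe was left out of this alignment. Whether such probes also bind the transcripts of related keratins was not tested.

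Signals are log2 intensities relative to the 75th percentile of the array, so a gene at that percentile has 0. A probe counts as measured where the scanner software marked it well above background, and a gene was read by its brightest probe. A keratin is called higher or lower here at a difference of at least 2-fold, which is 1 on the log2 scale. By this reading 26 of the 47 keratins were well above background on at least 1 array and 17 on all 4. The o-organoid array showed 22, the y-organoid array 21, the crypt array 20 and the intestine array 23. All 5 simple epithelial keratins were measured on all 4 arrays, and so were 5 of the 6 keratins not assigned to a tissue class here (called other). Of 15 keratins of stratified epithelia 9 were above background somewhere and 3 everywhere, and of 13 hair keratins 6 somewhere and 3 everywhere. Of the 8 keratins of hair follicle sheaths, Krt73 alone was above background, on all 4 arrays. The 21 keratins not well above background on any array were Krt1, Krt4, Krt17, Krt24, Krt25, Krt26, Krt27, Krt28, Krt32, Krt34, Krt35, Krt39, Krt40, Krt71, Krt74, Krt75, Krt76, Krt77, Krt78, Krt82 and Krt84.

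**Figure D1:**
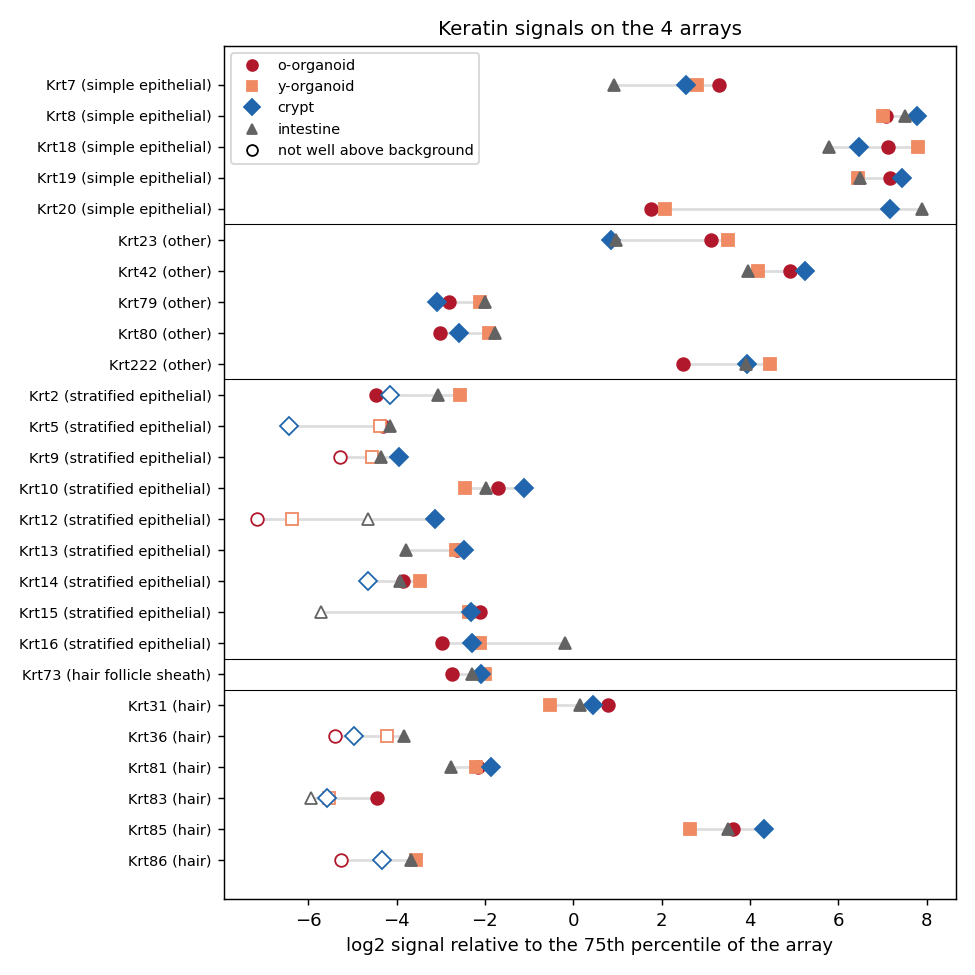
Log2 signal relative to the array's 75th percentile (horizontal axis) for the 26 keratins well above background on at least 1 array, grouped by class, with 1 symbol per array and open symbols where a probe was not well above background. Krt20 has its organoid symbols near 2 and its crypt and intestine symbols above 7; probes differ in brightness, so rows are to be read along, not against each other.

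No spot was saturated, and 51.9% to 58.7% of spots were well above background per array. Repeated spots give a spot SD of a difference of 0.0841 to 0.102 (log2) for bright probes and of up to 0.538 where both signals are dim, which leaves out any spread between animals or cultures. Of 22 pan-epithelial markers 21 were above background on every array. Stroma markers were above background for 0 of 10 on the o-organoid, 0 on the y-organoid, 1 on the crypt and 10 on the intestine array, and smooth muscle markers for 4, 3, 2 and 9 of 10 in the same order. Pancreas markers were above background for 5, 6, 7 and 11 of 11, with a median signal of -5.31, -2.84, -3.53 and 9.31. The intestine array thus carried signal of muscle, stroma and pancreas beside that of epithelium, and its part in the keratin differences from intestine was not tested. Enterocyte markers had a median of 5.49 on the crypt array and 5.69 on the intestine array, so the sample labelled crypt carried a strong signal of absorptive cells. Of 11 stem cell genes, 6 exceeded intestine by 2-fold or more in crypt and 1 was lower there. Of all genes 7.37% were higher in crypt by 2-fold or more and 7.60% lower. In RNA of whole samples, fewer cells of a type and less RNA per cell cannot be told apart.

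Krt8, the type II partner of Krt18 and Krt19 in simple epithelia, was bright on all 4 arrays by both of its probes. Its brighter probe read 7.07 in o-organoid, 7.02 in y-organoid, 7.79 in crypt and 7.52 in intestine. Its other probe read 6.26, 4.69, 6.80 and 5.89 in the same order. The probes differed in y-organoid: y-organoid minus crypt was -0.77 on the brighter probe and -2.11 on the dimmer one, whose sequence is given above. The first is 1.70-fold and the second 4.31-fold lower in y-organoid, so the size of the Krt8 difference depends on the probe. Between the organoids the probes also differed, with o-organoid minus y-organoid at 0.05 and 1.57.

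Krt18, the main type I partner of Krt8, was higher in y-organoid than in crypt. It read 7.12 in o-organoid, 7.80 in y-organoid, 6.47 in crypt and 5.78 in intestine. The y-organoid was 2.52-fold above crypt (log2 difference 1.33), o-organoid was within 2-fold of crypt (0.65), and crypt was within 2-fold of intestine (0.69). Under 7 alternative settings of scaling, background correction, spot filter and probe choice the y-organoid difference lay between 0.82 and 1.85, and it was under 2-fold on the scale of the deposited value table. The spot filter could change no keratin value, here or below, because no keratin probe held an outlier spot. Averaging probes could change no keratin read by 1 probe, Krt18 among them.

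Because Krt8 and Krt18 form a pair, their differences were set side by side. The Krt18 difference exceeded that of Krt8 (brighter probe) by 2.10 between y-organoid and crypt and by 1.36 between o-organoid and crypt. Between crypt and intestine the excess was 0.42, and between o-organoid and y-organoid it was -0.74. With the dimmer Krt8 probe these values were 3.44, 1.18, -0.23 and -2.26 in the same order, so the sign between crypt and intestine depends on the Krt8 probe. A constant added to an array cancels in these contrasts.

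Krt19, a type I keratin known for lacking most of the tail domain, kept a high signal throughout. It had 7.17 in o-organoid, 6.45 in y-organoid, 7.45 in crypt and 6.50 in intestine. The y-organoid minus crypt difference was -0.9999, just short of a 2-fold change. It passed 2-fold with normexp background correction (-1.14), quantile normalization (-1.27) and the deposited value table (-1.51), and was -0.48 with centring on the pan-epithelial markers. Crypt minus intestine was 0.95, o-organoid minus crypt -0.28 and o-organoid minus y-organoid 0.72, all within 2-fold.

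Krt7, a type II keratin known from ducts and glands, was lower in whole intestine than in the other samples. Its signals were 3.30 in o-organoid, 2.79 in y-organoid, 2.55 in crypt and 0.93 in intestine. Crypt was 3.06-fold above intestine (1.62), the 172nd largest difference upward among 15196 genes measured on both arrays. It lay between 1.14 and 2.35 under the 7 alternative settings. The organoids were within 2-fold of crypt, with differences of 0.75 for o-organoid and 0.25 for y-organoid.

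Krt20, a type I keratin of differentiated intestinal epithelium, had the largest difference among the keratins measured in either organoid comparison with crypt. Its signals were 1.75 in o-organoid, 2.08 in y-organoid, 7.16 in crypt and 7.90 in intestine. In intensity units of the scanner this was 2161 in o-organoid, 1187 in y-organoid, 67311 in crypt and 92416 in intestine. These intensities are not scaled between arrays, whose 75th percentiles were 641, 281, 469 and 386 in the same order. The order of the organoids is therefore read from the log2 signals. The organoid arrays were low and the crypt and intestine arrays high, with no values between. The o-organoid was 42.6-fold below crypt (-5.41), the 36th largest difference downward of 15012 genes, and y-organoid was 34.0-fold below crypt (-5.09), the 41st of 14847. Both comparisons share the crypt array. Under the 7 alternative settings the differences stayed between -5.51 and -5.12 for o-organoid and between -5.60 and -4.56 for y-organoid. Crypt minus intestine was -0.74 and o-organoid minus y-organoid -0.33, both within 2-fold.

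Markers of enterocytes, the absorptive cells of the villus, were lower in both organoids than in crypt, as Krt20 was. Of 15 listed, 13 of 14 measured were at least 2-fold lower in o-organoid than in crypt, where 12.2% of all genes were, with a median difference of -3.22. All 14 measured were at least 2-fold lower in y-organoid than in crypt (13.3% of all genes), with a median of -4.17 and a range of -8.85 to -2.62. Other cell types also had lower markers. In o-organoid 8 of 11 enteroendocrine, 5 of 7 tuft, 4 of 8 Paneth and 4 of 8 goblet genes were lower than in crypt, and 0 higher. Of all genes 12.2% were lower and 7.95% higher there. In y-organoid these were 3 of 11, 1 of 8, 7 of 7 and 4 of 8, and 2 tuft genes were higher. Of all genes 13.3% were lower and 16.0% higher there. Between crypt and intestine none of the 15 enterocyte genes differed by 2-fold, and the median was -0.25. Of all genes 7.37% were higher and 7.60% lower in that comparison. Between the organoids the markers did not follow Krt20, whose o-organoid minus y-organoid difference was -0.33. There 5 of 14 were at least 2-fold higher in o-organoid and 0 lower, with a median of 0.85. Of all genes 8.25% were higher and 16.9% lower in that comparison. The list's median signal was 2.15 in o-organoid, 0.91 in y-organoid, 5.49 in crypt and 5.69 in intestine. Crypt stem cell markers, all 11 measured on each array, had medians of 2.32 in o-organoid, 2.85 in y-organoid, 1.51 in crypt and 0.95 in intestine. Whether the share of absorptive cells accounts for the Krt20 difference was not tested.

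**Figure D2:**
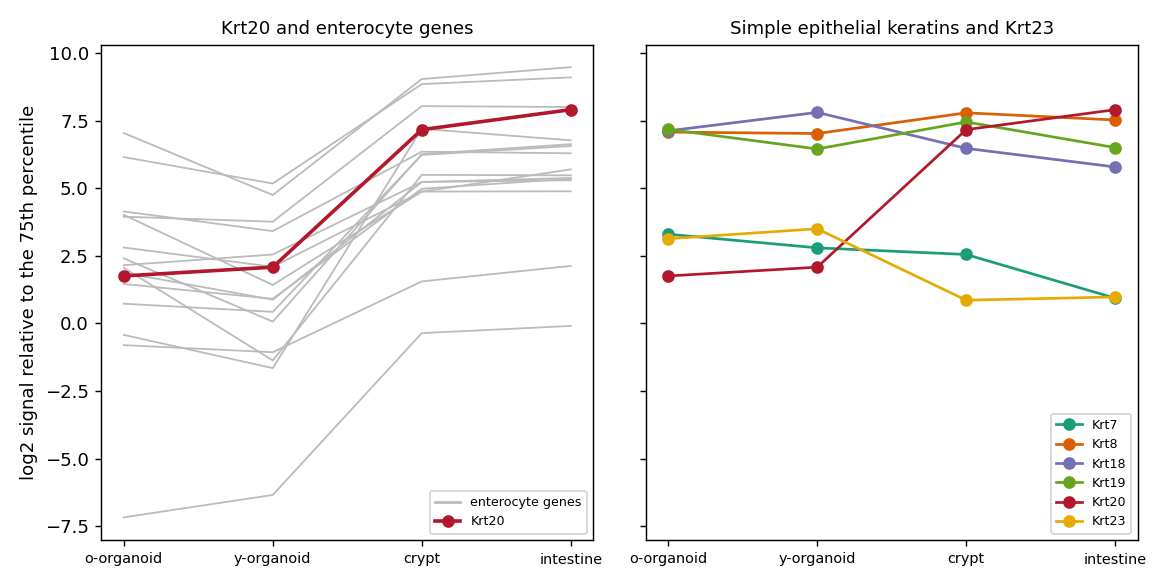
Log2 signal relative to the array's 75th percentile (vertical axis) by sample: on the left Krt20 in red and 15 enterocyte genes in grey, on the right the 5 simple epithelial keratins and Krt23. Krt20 steps up between the organoids (1.75 and 2.08) and the tissue samples (7.16 and 7.90) as most grey lines do, while Krt23 is higher in the organoids (3.13 and 3.50) than in crypt (0.86) and intestine (0.98). The lowest grey line was not well above background in either organoid.

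Krt23, a type I keratin of several glandular epithelia, went the other way. It read 3.13 in o-organoid, 3.50 in y-organoid, 0.86 in crypt and 0.98 in intestine. The intensities, not scaled between arrays, were 5613 in o-organoid, 3177 in y-organoid, 849 in crypt and 760 in intestine. Both organoid arrays were above both tissue arrays. The o-organoid was 4.84-fold above crypt (2.27) and y-organoid 6.25-fold above crypt (2.64), the 160th and 254th largest differences upward, again with the crypt array in common. Under the 7 alternative settings these lay between 2.11 and 2.57 for o-organoid and between 2.13 and 3.17 for y-organoid. Crypt minus intestine was -0.12 and o-organoid minus y-organoid -0.37.

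Krt20 and Krt23 are both type I genes of the chromosome 11 cluster with opposite differences, and the 250 bases before the start site of each are shown for that reason. Whether these sequences have a part in the differences was not tested. They are from RefSeq promoters of build GRCm38.p6, 5′ to 3′ on the gene's strand. Capitals mark the letters TATAAA, the core of a TATA box, which begin 29 bases before the start site of Krt20 (position -29).
Krt20 (chr11:99438154-99438403, minus strand): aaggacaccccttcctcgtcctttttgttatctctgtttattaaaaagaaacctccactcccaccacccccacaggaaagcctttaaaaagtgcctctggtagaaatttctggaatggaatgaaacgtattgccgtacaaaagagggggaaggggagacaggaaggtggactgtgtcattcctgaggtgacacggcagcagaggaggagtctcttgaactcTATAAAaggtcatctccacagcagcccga
Krt23 (chr11:99493121-99493370, minus strand): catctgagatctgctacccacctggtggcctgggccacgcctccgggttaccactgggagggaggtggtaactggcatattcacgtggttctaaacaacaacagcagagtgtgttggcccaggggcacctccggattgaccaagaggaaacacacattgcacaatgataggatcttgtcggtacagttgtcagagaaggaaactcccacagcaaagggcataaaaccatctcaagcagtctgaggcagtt
The letters TATAAA were searched on both strands of the RefSeq window that runs from 250 bases before to 50 after each start site. Only exact letters counted, so a near match such as CATAAA in the Krt23 sequence did not. The letters TATAAA were in 17 of 34 windows of 33 keratin genes (50%), and in 13.6% of all 32851 windows. Of the keratins above background on some array, they were in the windows of Krt8, Krt10, Krt12, Krt20, Krt31, Krt42 and Krt73. They were not in those of Krt2, Krt5, Krt7, Krt9, Krt13, Krt14, Krt18, Krt23, Krt36 and Krt79. The letters TGANTCA, which AP-1 factors bind, were in 2 of the 34 keratin windows (5.88%), both of Krt13, and in 7.81% of all windows. The Krt13 windows held no TATAAA. How often the 2 motifs share a window was not counted over all windows, so nothing is read from this. A match is a description of letters, not of binding.

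The rest of the unassigned keratins showed smaller or probe-dependent differences. Krt42, a type I keratin known from mouse nail and footpad, read 4.91 in o-organoid, 4.18 in y-organoid, 5.25 in crypt and 3.96 in intestine on its brighter probe. Its other probe was dim on all 4 arrays, at -6.79, -5.75, -6.21 and -6.26. The brighter probe was 2.44-fold higher in crypt than in intestine (1.29) and 2.10-fold lower in y-organoid than in crypt (-1.07). Averaging the probes took both under 2-fold (0.66 and -0.30), as did centring on the pan-epithelial markers (0.82 and -0.55). The differences of the Krt42 probe were near those of Krt19, whose sequence is shown beside it: -1.07 for Krt42 and -0.9999 for Krt19 in y-organoid minus crypt, and 1.29 for Krt42 and 0.95 for Krt19 in crypt minus intestine. In the alignment of keratin probes the Krt42 probe reached a score of 25 with a Krt28 probe alone, not with the Krt19 probe. It matched the Krt28 probe at 39 of 52 aligned bases, and Krt28 was dim on all 4 arrays. Probes were aligned with probes, not with whole transcripts. Whether the Krt42 probe also reads Krt19 or another type I keratin was therefore not tested.

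Krt222, a keratin-like type I gene, was lowest in o-organoid on its brighter probe. That probe, which holds a CA repeat of 22 bases, read 2.48 in o-organoid, 4.45 in y-organoid, 3.92 in crypt and 3.92 in intestine. The other Krt222 probe was dim on all 4 arrays, at -7.01, -6.23, -6.43 and -6.57. The o-organoid was 2.73-fold below crypt (-1.45) and 3.91-fold below y-organoid (-1.97) on the brighter probe. Both differences stayed past 2-fold under the 7 alternative settings, at their smallest -1.02 from crypt and -1.33 from y-organoid. The -1.02 is the mean with the other probe, which was dim on all 4 arrays. That mean therefore cannot show whether the call holds on a further measured probe. What the repeat contributes to the signal was not tested.

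Krt79, a type II keratin of the hair follicle's duct, and Krt80, a type II keratin found in many epithelia, had low signals. Krt79 read -2.82 in o-organoid, -2.11 in y-organoid, -3.08 in crypt and -1.999 in intestine. Crypt was 2.12-fold below intestine for Krt79 (-1.08), with a spot SD of 0.382. Krt80 had -3.01 in o-organoid, -1.90 in y-organoid, -2.59 in crypt and -1.76 in intestine, and o-organoid was 2.16-fold below y-organoid (-1.11). Both calls were lost in some alternative settings, among them normexp background correction (-0.74 for Krt79 and -0.93 for Krt80).

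Among the 4 keratins of stratified epithelia measured on both the crypt and intestine arrays, Krt16 differed most. Krt16, which skin makes after wounding, read -2.97 in o-organoid, -2.11 in y-organoid, -2.29 in crypt and -0.18 in intestine. Intestine was high and the other samples were within 1 unit of each other. Crypt was 4.33-fold below intestine (-2.11), and under the 7 alternative settings the difference stayed between -2.58 and -1.37. Mesothelium markers were above background for 3 of 10 in o-organoid, 3 in y-organoid, 2 in crypt and 8 in intestine, and stroma markers for 0, 0, 1 and 10 of 10. Their part in the Krt16 difference was not tested.

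Krt15, a type I keratin of basal cells, was measured in both organoids and crypt and was dim in intestine. It read -2.11 in o-organoid, -2.35 in y-organoid, -2.32 in crypt and -5.71 (not well above background) in intestine. Crypt was at least 4.49-fold above intestine, where at least means that the dim side is taken at the higher of its own value and the lowest signal above background on that array. The organoids differed from crypt by 0.21 for o-organoid and -0.03 for y-organoid, less than the spot SD.

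Krt10, the suprabasal partner of Krt1 in epidermis, was measured on all 4 arrays by both of its probes. Its brighter probe read -1.70 in o-organoid, -2.45 in y-organoid, -1.12 in crypt and -1.98 in intestine, and its other probe -2.56, -2.08, -1.16 and -2.28. Both were highest in crypt, and they disagreed on which organoid was lower. The y-organoid minus crypt difference was -1.33 (2.51-fold) on the brighter probe and -0.92 on the other, and o-organoid minus crypt was -0.58 on the brighter probe and -1.40 (2.64-fold) on the other. The brighter probe's y-organoid difference was a call that normexp background correction (-0.71) and centring on the pan-epithelial markers (-0.81) ended. Krt1 itself was dim on all 4 arrays.

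Krt13, the partner of Krt4 in moist stratified linings such as the oral cavity, read -2.64 in o-organoid, -2.65 in y-organoid, -2.47 in crypt and -3.79 in intestine. Crypt was 2.51-fold above intestine (1.33), with a spot SD of 0.505. Normexp background correction (0.56) and centring on the pan-epithelial markers (0.86) took it under 2-fold, and Krt4 was dim on all 4 arrays.

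The basal pair Krt5 and Krt14 lay near background. Krt14 read -3.85 in o-organoid, -3.48 in y-organoid and -3.92 in intestine, and was dim in crypt (-4.65), where y-organoid was at least 2.07-fold higher. Krt5 gave no consistent reading: its brighter probe was above background in o-organoid (-4.30) and intestine (-4.14) but dim in y-organoid (-4.37) and crypt (-6.43), and its other probe was above background in crypt alone (-4.11).

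The remaining stratified keratins were each seen on some arrays only. Krt2, of upper epidermis, read -4.47 in o-organoid, -2.56 in y-organoid and -3.07 in intestine, and was dim in crypt (-4.14). The o-organoid was 3.76-fold below y-organoid for Krt2 (-1.91), y-organoid at least 2.98-fold above crypt, and crypt at least 2.10-fold below intestine. Krt9, of palms and soles, was above background in crypt (-3.93) and intestine (-4.36) and dim in o-organoid (-5.29) and y-organoid (-4.57). Krt12, the corneal type I keratin, was above background in crypt alone (-3.12), against -7.15 in o-organoid, -6.37 in y-organoid and -4.66 in intestine. Crypt was at least 2.57-fold above intestine for Krt12, o-organoid at least 3.68-fold below crypt and y-organoid at least 2.11-fold below crypt. The second Krt12 probe and the second Krt2 probe were dim on all 4 arrays.

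Squamous differentiation genes were read beside these keratins. Of 27 on the arrays, 8 were above background in o-organoid, 9 in y-organoid, 8 in crypt and 8 in intestine. The epidermal genes Ivl, Flg and Krtdap were dim on all 4 arrays, while loricrin, Lor, was above background in o-organoid (-2.06) and y-organoid (-3.90) and dim in crypt (-5.13) and intestine (-4.48). For Lor, o-organoid was at least 5.53-fold above crypt and 3.58-fold above y-organoid. Cdsn went the other way: it was dim in o-organoid (-5.58), at least 2.81-fold below crypt and at least 2.39-fold below y-organoid. Trp63, the regulator of stratified epithelia, read 1.17 in o-organoid, 2.79 in y-organoid, 2.64 in crypt and 2.79 in intestine. Its o-organoid signal was 2.76-fold below crypt and 3.08-fold below y-organoid. The small proline-rich gene Sprr1a read 0.42 in o-organoid, -1.54 in y-organoid, -0.81 in crypt and -0.64 in intestine. Between o-organoid and crypt 1 of 6 measured squamous genes was higher and 1 lower, where 7.95% and 12.2% of all genes were. Of 4 above background on 1 of these arrays, 1 had a bound of 2-fold or more upward and 2 downward (35.5% of such genes in either direction). Between o-organoid and y-organoid 2 of 7 were higher and 2 lower, where 8.25% and 16.9% of all genes were. Between y-organoid and crypt 1 of 7 measured was higher and 1 lower, where 16.0% and 13.3% of all genes were. The higher was Sbsn (1.07 in y-organoid and -0.75 in crypt, 3.55-fold). The lower was Sfn (-0.14 in y-organoid and 1.20 in crypt, 2.53-fold).

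Among the hair keratins, Krt85 was bright on one probe alone. That probe read 3.61 in o-organoid, 2.65 in y-organoid, 4.33 in crypt and 3.49 in intestine. The other Krt85 probes were near background, at -3.07, -2.02, -2.73 and -2.43 for one and at -2.56, -3.02, -3.24 and -4.99 for the other, the last of which was dim. No genome position is given for the bright probe. The first of the others lies at chr15:101346117-101346176 and the second at chr15:101261695-101261754. The Krt83 probe lies at chr15:101263556-101263615. Whether the 3 Krt85 probes read the same gene was not tested. The y-organoid was 3.21-fold below crypt on the bright probe (-1.68), and the difference was -0.25 when the probes were averaged. The dimmer Krt8 probe had differences of the same sign as this probe. For y-organoid minus crypt they were -1.68 for Krt85 and -2.11 for Krt8. For o-organoid minus crypt they were -0.72 and -0.54, and for o-organoid minus y-organoid 0.97 and 1.57. Each pair was further apart than the spot SD of a difference of bright probes (0.0841 to 0.102). The brighter Krt8 probe had -0.77, -0.71 and 0.05 in that order, also of the same sign. Whether the bright Krt85 probe reads another type II keratin was not tested.

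Krt31, a type I hair keratin, was highest in o-organoid. It read 0.80 in o-organoid, -0.52 in y-organoid, 0.44 in crypt and 0.15 in intestine. The o-organoid was 2.49-fold above y-organoid (1.32), between 1.13 and 1.95 under the 7 alternative settings, while y-organoid minus crypt was -0.96. Krt81 read -2.16 in o-organoid, -2.21 in y-organoid, -1.85 in crypt and -2.77 in intestine, all within 2-fold of each other. Krt73, of the inner root sheath, read -2.75 in o-organoid, -1.99 in y-organoid, -2.09 in crypt and -2.29 in intestine, also within 2-fold.

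Krt36, Krt83 and Krt86 were above background on 1 or 2 arrays. Krt36 was above background in intestine alone (-3.82) and Krt83 in o-organoid alone (-4.44). Krt86 was above background in y-organoid (-3.57) and intestine (-3.66) and dim in o-organoid (-5.25) and crypt (-4.33), and o-organoid was at least 2.71-fold below y-organoid. Hair follicle markers were above background for 2 of 10 in o-organoid, 3 in y-organoid, 3 in crypt and 2 in intestine, with Hoxc13 and Foxn1 dim on all 4 arrays. The hair and Wnt regulator Lef1 was above background on all 4, at -4.74 in o-organoid, -3.77 in y-organoid, -4.07 in crypt and -2.87 in intestine. Msx2, a homeobox factor, was dim in o-organoid (-4.81) and above background in y-organoid (-3.53), crypt (-3.06) and intestine (-3.26).

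**Figure D3:**
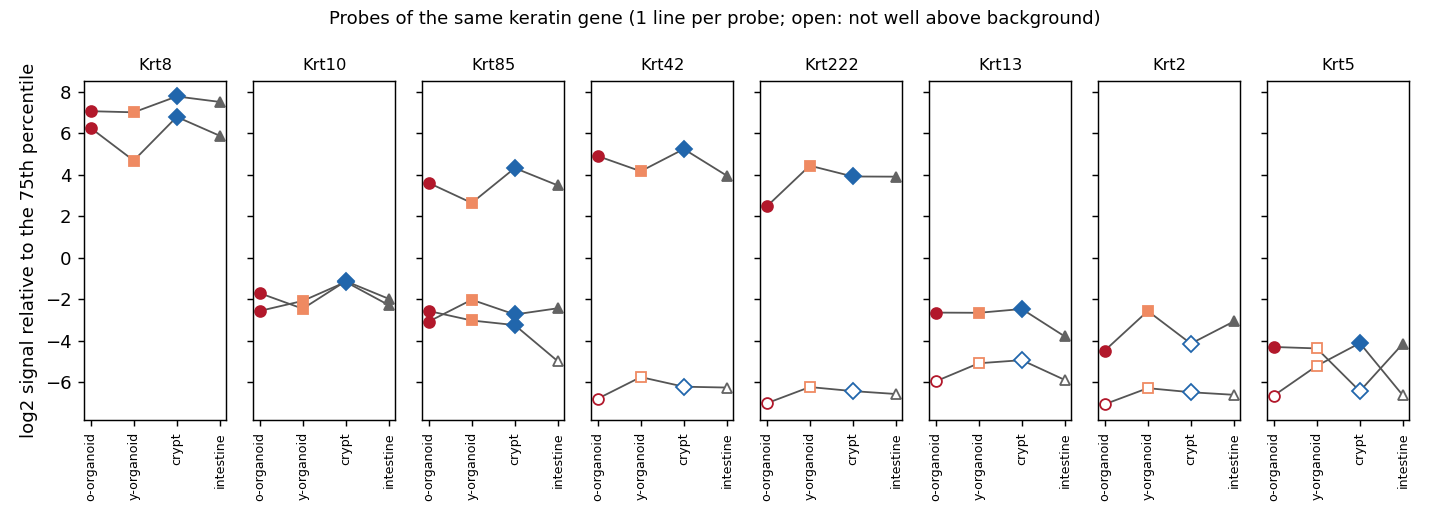
Log2 signal relative to the array's 75th percentile (vertical axis) by sample for 8 keratins with several probes, 1 line per probe and open symbols where a probe was not well above background. The Krt85, Krt42 and Krt222 panels each hold 1 bright line and 1 or 2 lines near background, and the Krt8 lines part most in y-organoid (7.02 and 4.69).

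Of the 13 keratins with more than 1 probe, 10 had at least 1 probe above background. In 4 of these at least 2 probes were above background, and in 6 exactly 1 was. The other 34 keratins were read by 1 probe, so that no such comparison exists for Krt7, Krt18, Krt19, Krt20 or Krt23.

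Between crypt and intestine, 18 keratins were measured on both arrays. Of these 3 were at least 2-fold higher in crypt (Krt7, Krt13 and Krt42), where 7.37% of all genes were, and 2 were lower (Krt16 and Krt79), where 7.60% were. Their median difference was 0.35, against 0.15 for all genes. A further 7 keratins were above background on 1 of these arrays, and 3 of them had a bound of 2-fold or more (Krt2, Krt12 and Krt15), where 52.0% of such genes did.

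Between y-organoid and crypt, 2 of 18 keratins were higher (Krt23 and Krt18) and 4 lower (Krt20, Krt85, Krt10 and Krt42). Of all genes 16.0% were higher and 13.3% lower. The median was -0.11 for keratins and 0.10 for all genes. Of 5 keratins seen on 1 array, 3 had a bound of 2-fold or more (Krt2, Krt12 and Krt14), against 46.3% of such genes.

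Between o-organoid and crypt, 1 of 18 keratins was higher (Krt23) and 2 were lower (Krt20 and Krt222), while 7.95% of all genes were higher and 12.2% lower. The median was -0.33 for keratins and -0.03 for all genes. Of 6 keratins seen on 1 array, 2 had a bound of 2-fold or more (Krt9 and Krt12), against 35.5% of such genes.

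Between the organoids, 1 of 20 keratins was higher in o-organoid (Krt31) and 3 were lower (Krt222, Krt2 and Krt80), with 8.25% of all genes higher and 16.9% lower. The keratin median and that of all genes were both -0.16. Of 3 keratins seen on 1 array, 1 had a bound of 2-fold or more (Krt86), against 47.0% of such genes. None of the 5 simple epithelial keratins differed by 2-fold between the organoids, except on the dimmer Krt8 probe (1.57). As shares, the keratin counts are of the order of those of all genes, and with 18 to 20 keratins a single gene moves them by several percentage points.

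The split between higher and lower depended on the scaling. On the scale of the deposited value table, where each array is divided by a constant, 11 keratins were higher and 1 lower between crypt and intestine (42.0% and 3.66% of all genes), and 1 higher and 7 lower between y-organoid and crypt (7.79% and 26.8%). On that scale 6 were higher and 3 lower between o-organoid and y-organoid (26.4% and 5.48%). The setting without a filter on dim probes was run for the counts and medians only, and the other 7 also for single keratins. The measured calls for Krt7, Krt16, Krt20, Krt23, Krt222, Krt31 and Krt2 held in all 7, and those for Krt10, Krt13, Krt18, Krt42, Krt79, Krt80 and Krt85 did not. Keeping outlier spots could change none of these calls. Averaging over probes could not change Krt7, Krt16, Krt20, Krt23 or Krt31, each read by 1 probe. For Krt2 and Krt222 that averaging took in a probe dim on all 4 arrays.

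**Figure D4:**
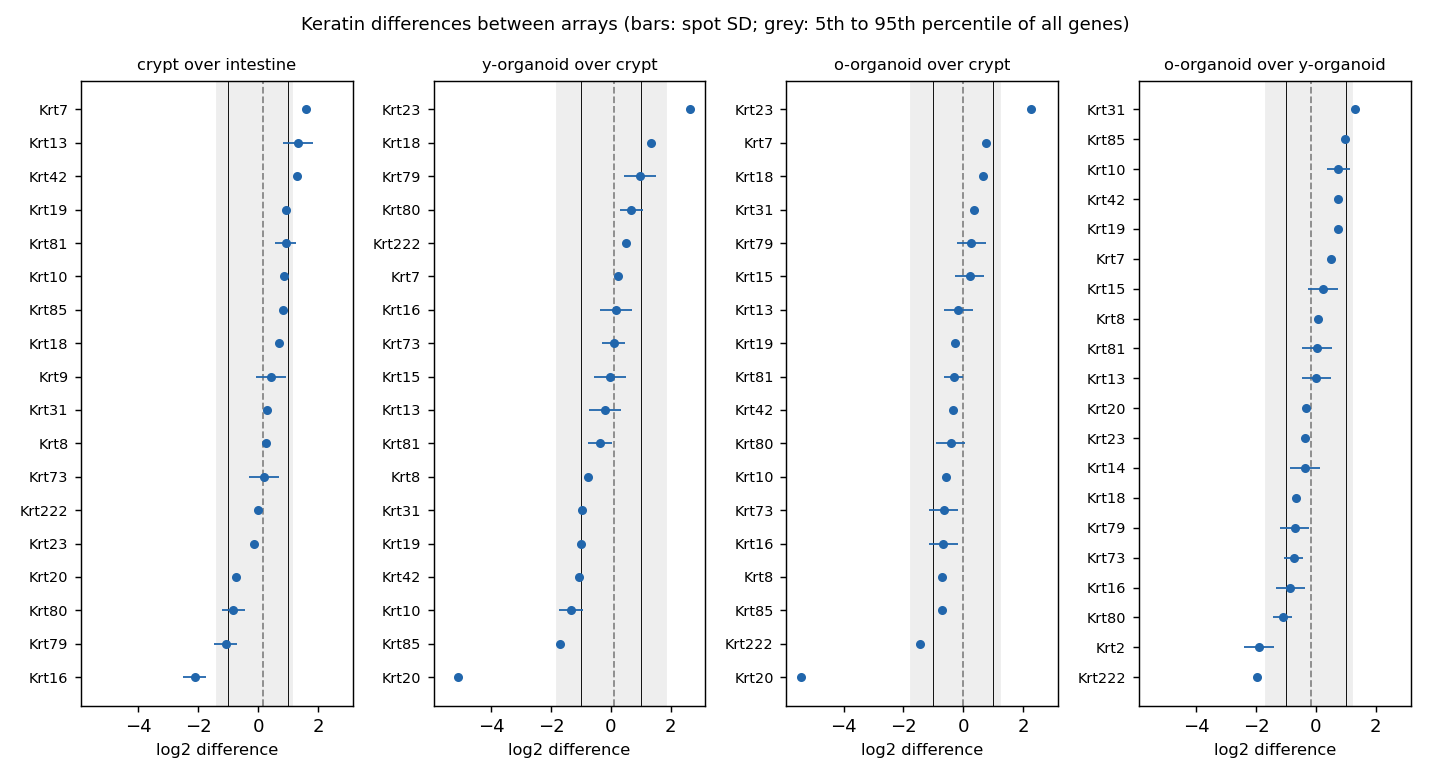
Log2 differences (horizontal axis, first sample minus second) of the keratins measured on both arrays, 1 panel per comparison, with bars for the spot SD, solid lines at 2-fold, a dashed line at the median of all genes and grey for their 5th to 95th percentile. Krt20 at -5.41 and -5.09 and Krt23 at 2.27 and 2.64 lie outside the grey band in both organoid comparisons with crypt.

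The proteins that anchor keratin filaments were read from a list of 15 desmosome genes, 8 of them measured in each comparison. For this list and those below, the shares of all genes at 2-fold are as follows. Between crypt and intestine 7.37% were higher and 7.60% lower, and between y-organoid and crypt 16.0% and 13.3%. Between o-organoid and crypt they were 7.95% and 12.2%, and between o-organoid and y-organoid 8.25% and 16.9%. Between crypt and intestine 1 was higher, the plakophilin Pkp1 (1.77, 3.40-fold), and 0 were lower. Between y-organoid and crypt 0 were higher and 2 lower: Perp, a desmosomal membrane protein (-1.31), and Dsp, the desmoplakin that binds keratin filaments (-1.05). Between o-organoid and crypt, and between o-organoid and y-organoid, 0 of 8 differed by 2-fold in either direction. The list's median differences were 0.40, -0.43, -0.22 and 0.36 in the 4 comparisons in the order given here.

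Of 10 genes of plakins and hemidesmosomes 9 were measured in each comparison. Between crypt and intestine 0 differed by 2-fold. Between y-organoid and crypt 2 were higher, the plakins Eppk1 (1.07) and Macf1 (1.02), and 0 lower. Between o-organoid and crypt 1 was higher, periplakin Ppl (1.44), and 3 were lower, envoplakin Evpl (-1.42), Dst (-1.23) and plectin Plec (-1.09). Between o-organoid and y-organoid 0 were higher and 2 lower, Dst (-1.48) and Eppk1 (-1.01).

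Other intermediate filament genes set the whole intestine apart. Of 16 listed, 7 were measured on both the crypt and intestine arrays, with 1 higher and 2 lower in crypt. The lower ones were vimentin, Vim, the filament of mesenchymal cells (-3.50, 11.3-fold), and nestin, Nes (-3.73). Desmin, Des, the muscle filament, was dim in crypt and at least 31.9-fold below intestine, and Synm, its partner, at least 21.3-fold below. Of 4 listed genes above background on 1 of these arrays, 4 had a bound of 2-fold or more, where 52.0% of such genes did. Between y-organoid and crypt 1 was higher (Nes, 1.42) and 0 lower, and between o-organoid and crypt 0 were higher and 1 lower (Bfsp1, -2.996). Between o-organoid and y-organoid 0 of 10 were higher and 2 lower (Bfsp1, -2.24, and Nes, -1.14). Vim was above background on all 4 arrays, at -1.97 in o-organoid, -1.62 in y-organoid, -1.87 in crypt and 1.62 in intestine.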

How the data were processed

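RNA from acid guanidinium extraction was amplified with a low-input Cy3 kit, starting from 40 ng for o-organoid and 20 ng for each other sample, per the labels. The deposited scanner files hold linear intensities from Agilent Feature Extraction 10.7.3.1, per the file headers, background-subtracted and detrended. The deposited value table is a ratio of those intensities over 1 constant per array (36.9 for o-organoid, 25.2 for y-organoid, 29.5 for crypt and 40.5 for intestine), with column medians of 1.0, uncentred. Its software is not given in the sources.

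From the intensity, log2 values minus each array's 75th percentile were computed. The 1377 control spots and outlier spots were left out, spots of a probe averaged, and the probe with the highest mean stood for its gene. Names came from the files and, for 27234 probes by accession, from RefSeq genes of GRCm38.p6. Alternatives were normexp correction (offset 50, limma 3.58.1), quantile normalization, the deposited ratio table, centring on pan-epithelial markers, the mean over probes, no filter on dim probes, outlier spots kept, and the percentile over probes above background. The number of arrays limits the precision. The calling step was checked on simulated data. Every keratin above background on an array is named with its values. From each list at most 4 genes, those with the largest differences, may be named. Levels of Ivl, Flg, Krtdap, Hoxc13 and Foxn1 (list members outside that rule) were chosen after their values were seen. The members and lists were chosen with earlier results of these data known. The sequence of 1 probe is not reported here.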

Additional observations from a re-analysis of the deposited data

How the results depend on the processing

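Of the 18 called keratin differences, 10 were called under all 7 alternatives that recompute single keratins, which leave out the one without a filter on dim probes. None reversed. Keeping outlier spots could change no single keratin, and the mean over probes could change none that was read by 1 probe. Counts of keratins at least 2-fold higher or lower, with the share of all genes in parentheses, and keratin medians moved as follows. Between crypt and intestine, 1 was lower (4.95%) with normexp. Quantile normalization gave 6 higher (11.2%), 1 lower (6.23%) and a median of 0.66. The deposited ratios gave 11 higher (42.0%), 1 lower (3.66%) and 1.09, pan-epithelial centring 1 higher (1.97%), 4 lower (14.7%) and -0.12, and no filter 8 higher (6.67%), 7 lower (14.5%) and 0.094. The percentile over probes above background gave a median of 0.15. Between y-organoid and crypt, the median was 0.14 with normexp and -0.49 with quantile normalization. The deposited ratios gave 1 higher (7.79%), 7 lower (26.8%) and -0.62, pan-epithelial centring 5 higher (33.7%), 2 lower (6.92%) and 0.41, no filter 9 higher (18.7%) and 0.19, and the percentile over probes above background 0.10. Between o-organoid and crypt, the deposited ratios gave a median of -0.20, pan-epithelial centring 2 higher (14.4%) and -0.030, no filter 3 higher (7.77%), 9 lower (12.7%) and -0.42, and the percentile over probes above background -0.14. Between o-organoid and y-organoid, normexp gave 2 higher (5.53%) and -0.31, quantile normalization 2 higher (10.3%) and 0.25, the deposited ratios 6 higher (26.4%) and 0.48, the mean over probes -0.35, and no filter 2 higher (5.75%), 14 lower (20.7%) and -0.71. The deposited ratios move the median of all genes by 0.74 between crypt and intestine, -0.51 between y-organoid and crypt, 0.12 between o-organoid and crypt and 0.64 between the organoids. Without the filter, dim probes enter the count of tested genes; for the other moves the cause was not tested. No paired analysis was possible because each group has 1 array, and no replicate could be left out. Dim probes, whose repeated spots vary most, limit what can be said of the stratified and hair keratins.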

Other observations

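Some keratins of mouse fell outside the rule because their name holds a letter or another symbol in the files. The wound-induced Krt6a and the hair keratins Krt33a and Krt33b were dim on all 4 arrays. Krt6b, the wound-induced type II keratin, was above background on all 4 arrays with 1 of its 2 probes, at -4.13 in o-organoid, -3.48 in y-organoid, -3.86 in crypt and -3.27 in intestine. The probe that the RefSeq table names Krt72 was above background in y-organoid (-3.87) and crypt (-4.30), and that named Krt90 on none. That named Krt88 was marked well above background in o-organoid alone (-4.79). Its y-organoid value was higher (-4.14) though not marked, so the mark does not make Krt88 particular to o-organoid.

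Keratin-associated proteins, which cross-link the keratins of hair, had 65 probes for 51 genes. Of these probes 26 were above background on at least 1 array and 16 on all 4. What the keratin-associated probes read was not tested.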
